A study of Rattus norvegicus with 15 samples.

Results

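The genes described here are the enzymes and carriers of glycolysis together with other transcripts known to be induced by hypoxia-inducible factor (HIF), in Odora cells given zinc gluconate. They were taken as the rows of the count table whose rat gene identifier carries 1 of 34 listed symbols. The table of 16832 genes held 32 of them, and Hk1 and Egln1 were not analysed here. Glycolysis makes up 21 of the listed symbols, other HIF targets 12, and Hif1a, the oxygen-regulated HIF subunit, stands alone. The filter on low counts kept 30 of the 32, 20 of glycolysis, 9 other HIF targets and Hif1a. P4ha1, a subunit of collagen prolyl hydroxylase, was at 0 in all 15 libraries. Egln3, an oxygen-sensing prolyl hydroxylase, had 7 counts or fewer in each. Neither was tested.

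RNA was sequenced from undifferentiated Odora cells, a rat line labelled as olfactory neuron, in 5 groups of 3 libraries. The groups were untreated cells (no time given), zinc gluconate at 100 µM during 6, 12 or 24 h, and zinc gluconate at 200 µM during 6 h. All groups share the 1 cell line, and no label states that libraries are of separate cultures. The p-values then measure a spread that may be technical. Among neuronal markers, Cnga2, Gap43 and Stmn2 were at 0 in every library, Omp was at 0.0778 to 0.703 CPM (counts scaled to a common library total) and Ncam1 at 86.0 to 105 CPM.

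Glycolysis splits glucose into pyruvate in the cytosol, and lactate dehydrogenase and the monocarboxylate carriers then dispose of the product. HIF is a pair of proteins, an oxygen-regulated alpha subunit and a constant partner, that binds short DNA elements near its target genes. Its alpha subunit is controlled mostly at the protein level, by prolyl hydroxylases that mark it for destruction when oxygen is present, so the level of its transcript is not a measure of its activity. Many glycolytic genes are HIF targets, as are genes for acid balance, vessel growth and removal of mitochondria.

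Libraries held 10.3 to 35.2 M (mega) counts. Libraries labelled 24 h at 100 µM and 6 h at 200 µM lay together in pairs: the chi-square per degree of freedom between matched libraries was 1.35 to 1.41, against 3.40 or more within either label. Tested against each other with edgeR's quasi-likelihood test, the 2 labels differed in 0 of 10575 genes (69 at an unadjusted p under 0.05, 0 by DESeq2 and 0 by limma-voom) and in 0 of the 30 tested members. With the library number as a block over these 6 libraries, 0 of 10301 genes were called (121 at an unadjusted p under 0.05), and with the closest libraries as a block 3 were (499). Both of those fits called 0 of the 29 members they tested and gave 0 of them an unadjusted p under 0.05. Library 1 of the 24 h label was closest to library 3 of the 200 µM label, 2 to 2, and 3 to 1. The matched libraries differed by more than counting error, and whether they are the same material or carry wrong labels was not tested. Every 24 h and 200 µM value below rests on these labels, and longer exposure and higher dose cannot be told apart from them. Results for either label are given beside each other. Leaving out the libraries of the other label gave 24 called members for the 24 h label and 22 for the 200 µM label. Transcripts of heart muscle stood out in 4 libraries: 10 markers summed to 132, 37.3 and 133 CPM in the 3 controls and to 66.6 CPM in library 1 of 6 h, against 4.44 to 6.24 CPM in the other 11. As a check of exposure, the zinc-induced metallothionein Mt1 rose in all 4 treated groups, by 3.67 to 5.00 on the log2 scale. Mt2A, Slc30a1 and Hmox1 also rose in all 4. The rises did not all grow with the labelled time or dose. Between 24 h and 12 h the log2 ratio was -1.33 for Mt1, -1.88 for Mt2A, -0.02 for Slc30a1 and 5.64 for Hmox1. Between 200 µM and 100 µM at 6 h it was -1.28, -1.37, -0.35 and 3.26.

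The sequences printed next are promoter windows of 4 members described below. Each runs from 250 bases before to 50 after the start in RefSeq (assembly GRCr8, 5′ to 3′ on the gene's strand). Capitals mark the core of the HIF element, ACGTG or GCGTG, on either strand. The deposited counts were made on an older build, so these places are not those of the read alignments.

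Car9, chr5:62558774-62559073, plus strand: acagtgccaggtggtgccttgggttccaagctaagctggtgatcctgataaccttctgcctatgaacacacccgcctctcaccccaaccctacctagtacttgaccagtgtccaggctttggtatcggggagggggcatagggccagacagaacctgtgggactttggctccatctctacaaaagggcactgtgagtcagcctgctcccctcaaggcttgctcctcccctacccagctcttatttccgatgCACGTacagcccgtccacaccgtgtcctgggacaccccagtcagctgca

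Bnip3, chr1:203154913-203155212, minus strand: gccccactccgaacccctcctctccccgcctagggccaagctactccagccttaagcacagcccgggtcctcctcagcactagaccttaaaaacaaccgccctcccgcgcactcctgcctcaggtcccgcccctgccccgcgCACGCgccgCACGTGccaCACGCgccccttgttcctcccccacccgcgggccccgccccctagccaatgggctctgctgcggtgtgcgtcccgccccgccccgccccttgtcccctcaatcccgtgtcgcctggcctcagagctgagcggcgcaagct

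Pdk1, chr3:77113264-77113563, plus strand: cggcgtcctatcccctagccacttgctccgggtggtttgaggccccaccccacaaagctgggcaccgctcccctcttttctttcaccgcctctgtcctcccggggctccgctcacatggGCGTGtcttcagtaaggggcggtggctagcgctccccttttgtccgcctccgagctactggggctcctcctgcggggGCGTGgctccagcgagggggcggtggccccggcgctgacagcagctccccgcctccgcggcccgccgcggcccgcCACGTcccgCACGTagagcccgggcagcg

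Slc2a1, chr5:138002272-138002571, plus strand: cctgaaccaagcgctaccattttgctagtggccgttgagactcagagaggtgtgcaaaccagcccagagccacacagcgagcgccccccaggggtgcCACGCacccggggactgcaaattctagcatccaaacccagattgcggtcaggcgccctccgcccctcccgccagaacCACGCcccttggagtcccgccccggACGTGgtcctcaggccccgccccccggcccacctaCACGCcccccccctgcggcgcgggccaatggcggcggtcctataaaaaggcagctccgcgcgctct

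Bnip3, Pdk1 and Slc2a1 hold 4 cores each and Car9 holds 1. In Bnip3 the palindrome CACGTG is counted on both strands. Of the 32 members in the table, 29 have a window in RefSeq, 33 windows in all, and 69.7% of these hold a core, against 41.6% of the 33469 windows of all genes. ACGTG was in 57.6% of member windows against 19.3% of all, and GCGTG in 48.5% against 29.7%. The core of the metal response element (TGCACNC or TGCGCNC) was in 45.5% of member windows against 24.2%, and the antioxidant element TGACNNNGC in 12.1% against 12.1%. Slc2a3, Pgk1 and Bnip3l have no entry. The windows of Hk2, Slc16a3, Vegfa, Pkm, Tpi1, Pfkfb4 and Egln3 hold neither form of the HIF core. A match is a string of letters and not evidence of binding, and none of the changes described here was tied to it.

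Most members rose after zinc, and the groups took different courses. Against control, 22 of the 30 tested members changed at 6 h (20 higher, 2 lower), where 17.2% of all tested genes were called (9.1% higher, 8.1% lower). At 12 h 19 changed (18 higher, 1 lower), where 6.33% of genes were called (3.36% higher, 2.97% lower). Under the 24 h label 24 changed (23 higher, 1 lower), where 61% of genes were called (29.7% higher, 31.3% lower). Under the 200 µM label 24 changed (23 higher, 1 lower), where 60.5% were (29.4% higher, 31.1% lower). With library totals in place of TMM scaling the median of all genes moved to -0.40 under both of these labels. The members then split into 18 higher and 8 lower under the 24 h label, beside 1296 higher and 6694 lower of all 10575 genes. Under the 200 µM label the split was 17 and 6, beside 1264 and 6625 of all genes. Car9, Pfkl, Pgam1 and Slc16a1, called higher with TMM scaling, had log2 ratios below control under both labels with totals. That statement is of their sign, whether called or not. The 1 lower member under both of these labels is Ldhb, which has counts only in the 4 libraries with heart transcripts and passed the filter through them, so that its direction was set by the filter. All 4 comparisons share the 3 controls. The median log2 ratio of the 20 tested glycolysis genes was 0.40, 0.45, 0.65 and 0.63 in these 4 comparisons, that of the 9 other HIF targets 0.51, 0.47, 0.55 and 0.53, and that of all tested genes 0.00, 0.00, -0.02 and -0.02. All 3 treated libraries lay above all controls for 19 members at 6 h, 19 at 12 h, 24 under the 24 h label and 23 under the 200 µM label, as they did for 18.3%, 14.4%, 31.2% and 30.7% of all genes. They lay below all controls for 2, 4, 1 and 2 members, and for 17.2%, 13%, 33% and 33.1% of all genes. Across all 5 groups 27 members differed, where 66.4% of all genes did.

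When the 4 libraries with heart transcripts were given a term of their own, 17 members were called at 6 h, 3 at 12 h (Car9, Ldha and P4ha2), 21 under the 24 h label and 21 under the 200 µM label. The same fit called 8.82%, 0.473%, 36.7% and 36.9% of all genes. The calls lost at 6 h were those of Aldoa (adjusted p = 0.0729), Hk2 (0.0678), Pkm (0.0521), Slc16a1 (0.189) and Tpi1 (0.113). The higher members whose 12 h call was lost still had log2 ratios of 0.25 to 1.05 in that fit. The term covers all 3 controls, so library 1 of 6 h alone set it, and each comparison with control in that fit rests on this library. It was also the deepest, at 35.2 M counts against 10.3 and 12.2 M in the other 6 h libraries. A call lost with the heart term therefore cannot show an effect of heart transcripts. The part of the heart transcripts in these calls was not tested further. Bulk RNA cannot tell fewer cells of a kind from less RNA per cell.

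**Figure D1:**
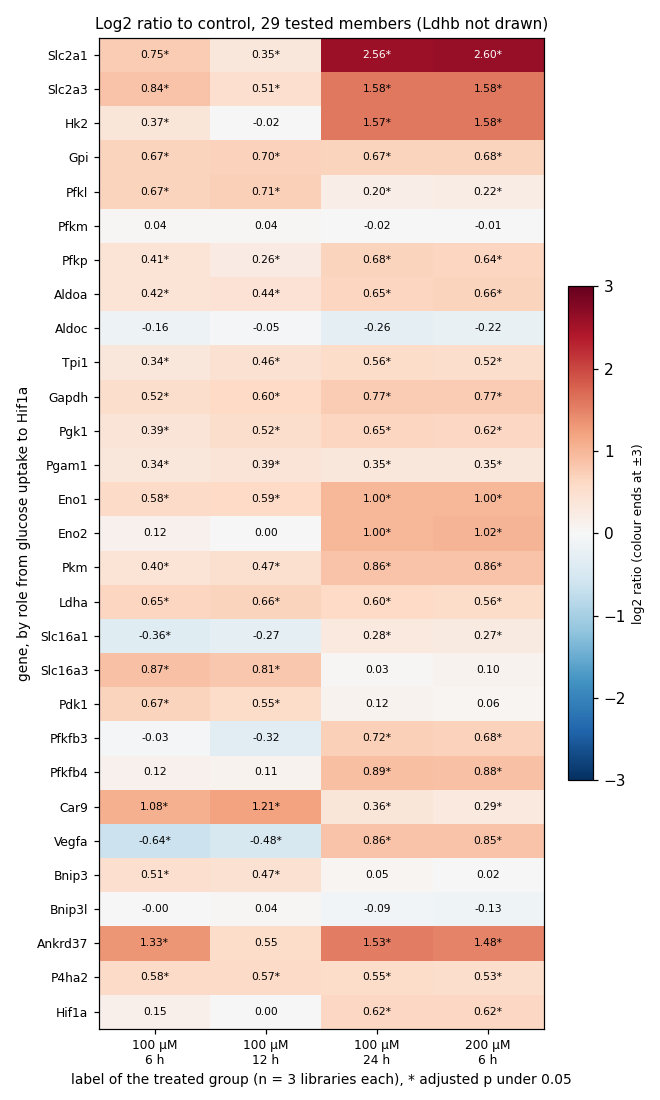
Log2 ratio of each treated group to control for 29 tested genes (rows, by role) in the 4 treated groups (columns), with an asterisk where the adjusted p was under 0.05 and colour for size. Ldhb, at 0 in most libraries, is not drawn. Slc2a1 reached 2.56 and 2.60 under the 24 h and 200 µM labels, while Car9 was highest at 12 h with 1.21.

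Both glucose carriers rose in every treated group. Slc2a1, the basal glucose carrier, was at 103, 99.3 and 102 CPM in the controls, 183, 153 and 176 at 6 h, 148, 118 and 121 at 12 h, 598.5, 636 and 566 under the 24 h label, and 591, 638 and 619 under the 200 µM label. Every treated library lay above every control, and the 24 h and 200 µM libraries lay far above the rest. The log2 ratio to control was 0.75 ± 0.08 (SE, n = 3 against 3, adjusted p = 4.57e-06) at 6 h and 0.35 ± 0.08 (0.0177) at 12 h. It was 2.56 ± 0.09 (1.44e-14) under the 24 h label and 2.60 ± 0.09 (1.27e-14) under the 200 µM label. Slc2a1 was the only member called between 12 h and 6 h at 100 µM, where 0.974% of all genes were (0.482% higher, 0.492% lower), with a log2 ratio of -0.41 ± 0.08 (adjusted p = 0.0202). That call was lost without library 1 (adjusted p = 0.186) or 3 of 6 h (0.0934), or without library 2 (0.182) or 3 of 12 h (0.125). Without overlap, 1 member was higher and 4 were lower at 12 h than at 6 h, as were 9.56% and 9.41% of all genes. The 12 h call of Slc2a1 against control was lost without library 1 of 12 h (0.165), control 1 (0.0543) or control 2 (0.0538).

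Slc2a3, a high-affinity glucose carrier of neurons, measured 76.3, 87.2 and 99.99 CPM in untreated cells, and its lowest treated value was 109.8 CPM at 12 h. Its log2 ratio was 0.84 ± 0.11 at 6 h, 0.51 ± 0.11 at 12 h, and 1.58 ± 0.11 under both the 24 h and the 200 µM label. The 12 h call was lost without control 1 (adjusted p = 0.0572) or library 1 of 12 h (0.0730). Hk2, the inducible hexokinase that traps glucose in the cell, was at 48.9, 38.3 and 39.7 CPM in the controls, 58.8, 48.0 and 56.2 at 6 h, and 50.5, 37.7 and 36.8 at 12 h. The 24 h label gave 128, 114 and 135.5 CPM and the 200 µM label 128, 119 and 131.5. Hk2 therefore overlapped the controls at 6 h and 12 h and cleared them under the other labels, with log2 ratios of 1.57 ± 0.12 (adjusted p = 3.35e-09) and 1.58 ± 0.12 (3.55e-09). The 6 h ratio of 0.37 ± 0.12 (0.0376) was lost without control 2 (0.121), control 3 (0.118), or library 1 (0.163) or 3 (0.108) of 6 h.

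The enzymes from Gpi to the triose phosphates moved by less, and not all of them moved. Gpi, which turns glucose 6-phosphate into fructose 6-phosphate, had 211.5, 260.2 and 254 CPM in untreated cells and 351 or more in each treated library, with ratios of 0.67 to 0.70. Of the 3 phosphofructokinase subunits, Pfkl, the liver type, was at 83.0, 92.9 and 90.5 CPM in the controls, 138, 135 and 152 at 6 h, 164, 139.8 and 131 at 12 h, 95.4, 108 and 102 under the 24 h label, and 98.8, 108 and 104 under the 200 µM label. It was therefore highest at 6 h and 12 h and only a little above the controls under the other labels. Its ratios were 0.67 ± 0.08 (1.01e-05), 0.71 ± 0.08 (2.73e-05), 0.20 ± 0.08 (0.0389) and 0.22 ± 0.08 (0.0227). The last pair was lost without control 1 (0.149 and 0.0975), without library 2 of the 24 h label (0.139), without its library 3 (0.0778), without control 3 (24 h label, 0.0605), and without library 2 (0.0731) or 3 (0.0566) of the 200 µM label.

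Pfkp, the platelet subunit, had ratios of 0.41, 0.26, 0.68 and 0.64, and its 12 h call was lost when either control 1 (0.179) or control 3 (0.0637), or library 1 (0.219) or 2 (0.129) of 12 h, was left out. Pfkm, the muscle subunit, was at 59.5 to 77.8 CPM over all libraries, and was called in no comparison. Aldolase showed the same split: Aldoa, the broadly expressed form, had ratios of 0.42, 0.44, 0.65 and 0.66. Aldoc, the brain form, was at 18.6 to 29.8 CPM and was called in no comparison with group as the only factor. With the replicate block it was called lower under the 24 h label, as given in the last section. Tpi1, which interconverts the triose phosphates, had ratios of 0.34, 0.46, 0.56 and 0.52.

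In the lower part of the pathway, where ATP is made, Gapdh, Pgk1, Pgam1, Eno1 and Pkm rose in all treated groups. Gapdh, the dehydrogenase often used as a reference gene, was at 3700, 3613 and 4121 CPM in the controls, 5333, 5217 and 5852 at 6 h, 6510, 5581 and 5200 at 12 h, 6403, 6906 and 6204 under the 24 h label, and 6082, 6917 and 6468 under the 200 µM label. No treated library fell to the level of a control. The log2 ratios were 0.52 ± 0.09 (adjusted p = 0.000325), 0.60 ± 0.09 (0.000335), 0.77 ± 0.09 (3.14e-07) and 0.77 ± 0.09 (3.36e-07). Pgk1, the first ATP-making step, had ratios of 0.39, 0.52, 0.65 and 0.62. Pgam1, phosphoglycerate mutase, had 0.34, 0.39, 0.35 and 0.35; its 6 h call was lost without library 1 of 6 h (0.0790) and its 12 h call without library 1 of 12 h (0.0676). Eno1, the common enolase, had 0.58, 0.59, 1.00 and 1.00, and Pkm, pyruvate kinase, 0.40, 0.47, 0.86 and 0.86.

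Eno2, the neuronal enolase, was at 114, 115.5 and 96.0 CPM in the controls, 107, 133 and 115 at 6 h, and 105, 112 and 109 at 12 h. The 24 h label gave 214.5, 238 and 201 CPM and the 200 µM label 205, 243.5 and 214. Its ratio was 0.12 ± 0.09 at 6 h and 0.00 ± 0.09 at 12 h, neither called, and 1.00 ± 0.09 (2.13e-08) and 1.02 ± 0.09 (1.73e-08) under the other labels. RefSeq lists pseudogenes for 12 members in the table, 78 for Gapdh and 30 each for Eno1 and Ldha, and reads shared with such copies cannot be separated here.

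Lactate handling divided. Ldha, the subunit that favours lactate, had ratios of 0.65, 0.66, 0.60 and 0.56. Ldhb, the subunit common in heart, was at 0.904, 0.190 and 1.21 CPM in the controls, 0.622 in library 1 of 6 h, and 0 in the other 11 libraries. Those 4 libraries are the ones with heart transcripts. With 3 counts over the group as the floor, Ldhb was at least 10.6-fold lower at 12 h, 12.4-fold under the 24 h label and 10.2-fold under the 200 µM label. Its fitted ratio passed the threshold under the last 2 labels, which is no evidence of a fall since the filter kept it through the libraries where it is high. It did not pass with DESeq2, without the filter or with the heart term (adjusted p = 1). Its 24 h value did not pass without library 2 of that label (0.0634), nor did its 200 µM value without control 1 (0.0605), control 3 (0.0579) or any 1 library of that label (0.0555 to 0.0764). Putting these bounds in place of its fitted value left the glycolysis medians as given.

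Slc16a1 and Slc16a3, carriers that move lactate and other monocarboxylates across the membrane, went different ways. Slc16a1, the widespread form, was at 209, 166 and 172 CPM in the controls, 154, 132 and 139 at 6 h, 159, 147 and 146.5 at 12 h, 228, 213 and 225 under the 24 h label, and 223, 217 and 217 under the 200 µM label. The 6 h and 12 h libraries lay below all controls and the other 6 above them. Its ratios were -0.36 ± 0.08 (0.00418), -0.27 ± 0.08 (0.0503, not called), 0.28 ± 0.08 (0.00468) and 0.27 ± 0.08 (0.00748), and with the heart term the 6 h call was lost (0.189). The 12 h fall was called by DESeq2 (0.0312), and without control 2 (0.0265) or control 3 (0.0464). Slc16a3, the form of glycolytic cells, was at 9.34, 11.3 and 10.7 CPM in the controls, 21.1, 16.0 and 19.7 at 6 h, 21.8, 17.5 and 15.9 at 12 h, 10.1, 11.7 and 10.1 under the 24 h label, and 8.40, 13.98 and 11.1 under the 200 µM label. It cleared the controls at 6 h and 12 h and overlapped them under the other labels. Its ratios were 0.87 ± 0.15 (0.000425), 0.81 ± 0.15 (0.00297), 0.03 ± 0.16 (0.892) and 0.10 ± 0.16 (0.616).

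**Figure D2:**
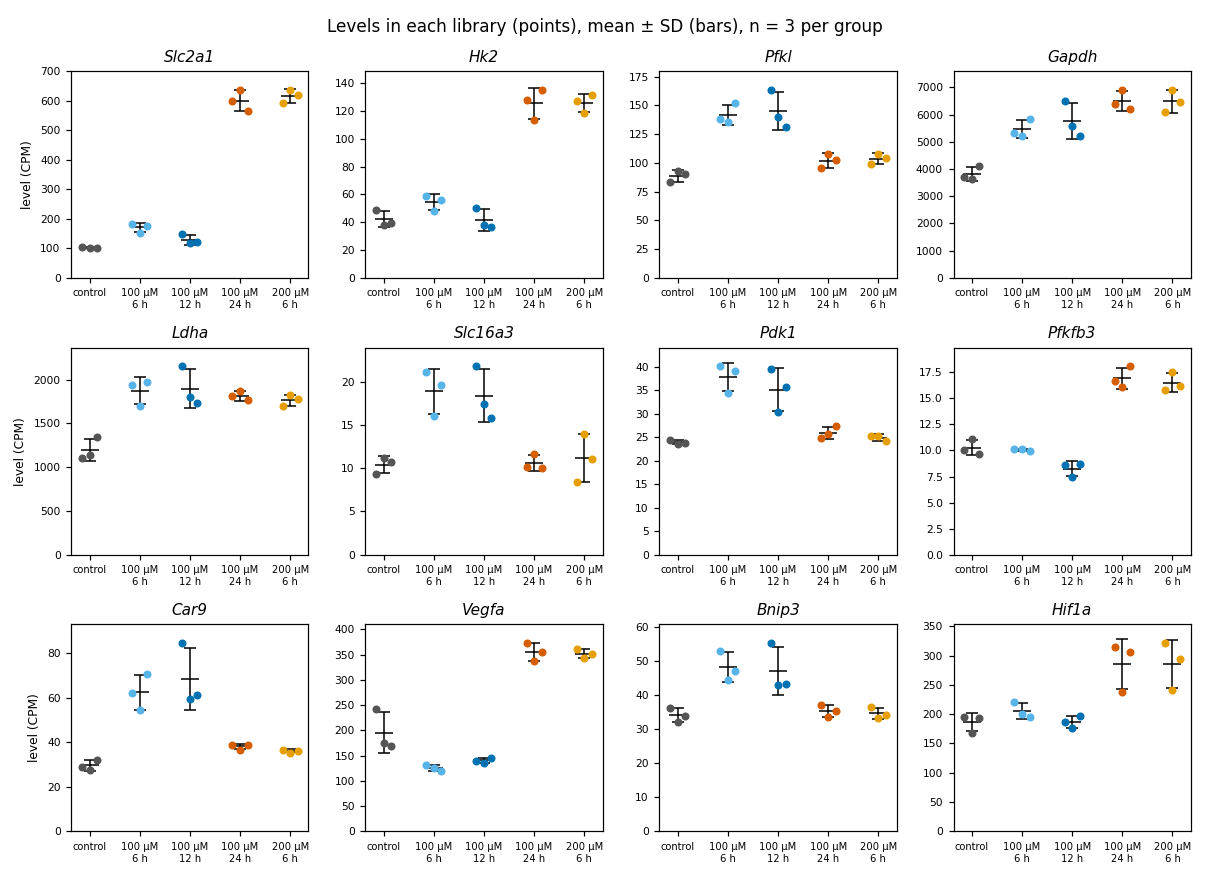
Level in CPM (vertical axis, from 0) of 12 genes in each of 15 libraries by group, with points for libraries and bars for the mean ± SD (n = 3). Slc2a1, Hk2, Pfkfb3, Vegfa and Hif1a are highest under the 24 h and 200 µM labels, while Pfkl, Slc16a3, Pdk1, Car9 and Bnip3 are highest at 6 h and 12 h.

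Genes that steer carbon flux came next. Pdk1, a kinase that shuts pyruvate out of the mitochondrial cycle, was at 24.4, 23.6 and 23.9 CPM in the controls, 40.1, 34.5 and 39.0 at 6 h, 39.5, 30.3 and 35.7 at 12 h, 24.9, 25.7 and 27.3 under the 24 h label, and 25.4, 25.3 and 24.1 under the 200 µM label. It rose at 6 h and 12 h above all controls, with ratios of 0.67 ± 0.09 (2.45e-05) and 0.55 ± 0.09 (0.000814), and was 0.12 ± 0.09 (0.263) and 0.06 ± 0.09 (0.602) under the other labels. Pfkfb3, which makes the activator of phosphofructokinase, ran the other way, at 10.1, 11.1 and 9.66 CPM in the controls, 10.1, 10.1 and 9.92 at 6 h, 8.62, 7.42 and 8.67 at 12 h, 16.6, 16.1 and 18.1 under the 24 h label, and 15.8, 17.6 and 16.2 under the 200 µM label. It rose under the last 2 labels, by 0.72 ± 0.09 (1.86e-06) and 0.68 ± 0.09 (4.37e-06), while its 12 h ratio of -0.32 ± 0.10 missed the threshold (0.0647). Pfkfb4, an isoform of the same enzyme, had 0.89 ± 0.11 and 0.88 ± 0.12 under those labels, and 0.12 and 0.11 at 6 h and 12 h, not called.

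HIF targets outside sugar metabolism differed in course from one another. Car9, a membrane carbonic anhydrase of acid balance, was at 29.04, 27.6 and 32.1 CPM in the controls, 62.2, 54.4 and 70.4 at 6 h, 84.4, 59.5 and 61.0 at 12 h, 38.9, 36.6 and 38.9 under the 24 h label, and 36.8, 35.4 and 36.3 under the 200 µM label. All treated libraries lay above the controls, the 6 h and 12 h libraries furthest. Its ratios were 1.08 ± 0.11 (3.23e-06), 1.21 ± 0.11 (3.76e-06), 0.36 ± 0.12 (0.0113) and 0.29 ± 0.12 (0.0426). The last call was lost in 5 of 6 leave-one-out fits, at 0.0967 without control 1, 0.134 without control 2, and 0.0938, 0.0638 and 0.0907 without libraries 1, 2 and 3 of that label, and also without the 24 h libraries (0.0523). Both of the last calls were lost with the heart term (0.194 and 0.315).

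Vegfa, the growth factor of blood vessels, was at 242, 175 and 169.5 CPM in the controls, 131, 126 and 119.7 at 6 h, 140.3, 136 and 145 at 12 h, 373, 337 and 356 under the 24 h label, and 361, 344 and 352 under the 200 µM label. It lay below all controls at 6 h and 12 h and above them under the other labels. The ratios were -0.64 ± 0.10 (0.000216), -0.48 ± 0.10 (0.00724), 0.86 ± 0.10 (5.29e-07) and 0.85 ± 0.10 (6.58e-07). The 12 h call was lost in the fit of the 6 libraries compared (0.0529) and with the heart term (0.452).

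Bnip3, a receptor for the removal of mitochondria, was at 36.4, 32.2 and 33.8 CPM in the controls, 53.0, 44.5 and 47.2 at 6 h, 55.2, 42.9 and 43.2 at 12 h, 37.0, 33.6 and 35.4 under the 24 h label, and 36.5, 33.3 and 34.3 under the 200 µM label. It rose at 6 h, by 0.51 ± 0.09 (0.000817), and at 12 h, by 0.47 ± 0.09 (0.00529), and overlapped the controls elsewhere. The 12 h call was lost without library 1 of 12 h (0.0514). Its relative Bnip3l was at 75.1 to 97.6 CPM throughout and was called in no comparison with group as the only factor. P4ha2, a collagen prolyl hydroxylase subunit, spanned 44.1 to 49.0 CPM untreated and 66.3 to 73.7 CPM over the 12 treated libraries, with ratios of 0.58, 0.57, 0.55 and 0.53. Ankrd37, a hypoxia-induced transcript, was at 3.05 CPM or less, with ratios of 1.33 ± 0.25, 0.55 ± 0.29 (not called), 1.53 ± 0.25 and 1.48 ± 0.26.

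Hif1a itself was at 196, 168 and 194 CPM in the controls, 221, 199.8 and 196 at 6 h, 187, 176 and 197 at 12 h, 314, 237 and 306 under the 24 h label, and 321, 242 and 294 under the 200 µM label. The 6 h and 12 h libraries overlapped the controls, at 0.15 ± 0.11 (0.394) and 0.00 ± 0.11 (0.996). The other 6 lay above them, at 0.62 ± 0.11 (9.84e-05) and 0.62 ± 0.11 (0.000102).

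The 24 h label at 100 µM was next set against 12 h at the same dose. These 6 libraries carried no raised heart transcripts and include no control. Of the 30 tested members 19 changed (14 higher, 5 lower), where 54.5% of all genes were called (26.9% higher, 27.6% lower). With library totals the median of all genes was -0.34 and the members split into 10 higher and 14 lower, beside 1192 and 6178 of all genes. The higher ones were led by Slc2a1 at 2.22 ± 0.09, Hk2 at 1.59 ± 0.12, Vegfa at 1.34 ± 0.10 (adjusted p = 2.4e-09), Slc2a3 at 1.07 ± 0.11, Pfkfb3 at 1.04 ± 0.10 and Eno2 at 1.00 ± 0.09. The 5 that fell were Car9 at -0.84 ± 0.12 (6.71e-06), Slc16a3 at -0.79 ± 0.16 (0.000358), Pfkl at -0.51 ± 0.08 (3.07e-05), Pdk1 at -0.44 ± 0.09 (0.000427) and Bnip3 at -0.41 ± 0.10 (0.00126). These 5 had no overlap between the groups, nor did 13 higher members, as was so for 31.2% of all genes on the lower side and 29.5% on the higher.

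At 6 h, 200 µM against 100 µM called 20 members (15 higher, 5 lower), where 53.6% of all genes were called (26.5% higher, 27.1% lower). With library totals the median of all genes was -0.35 and the members split into 8 higher and 13 lower, beside 1073 and 6282 of all genes. Without overlap, 15 members were higher and 5 lower, as were 28.8% and 30.1% of all genes. The highest ratios were again of Slc2a1, 1.85 ± 0.08, Vegfa, 1.48 ± 0.10 (6.64e-10), and Hk2, 1.21 ± 0.12. The 5 lower were Car9 at -0.79 ± 0.12, Slc16a3 at -0.78 ± 0.16, Pdk1 at -0.61 ± 0.09, Bnip3 at -0.48 ± 0.10 and Pfkl at -0.45 ± 0.08. These are the same 5 genes as between the times, and since the 24 h and 200 µM libraries lie together, the second comparison is not independent of the first. Aldoa had 0.21 between the times, a call lost without library 2 (0.143) or 3 (0.144) of 12 h, or 1 (0.0664) or 2 (0.151) of 24 h. Between doses its 0.24 was lost without library 1 of 100 µM (0.0799) or 2 of 200 µM (0.0988). The rise of Gapdh between doses, 0.25, was lost without library 1 (0.0639) or 2 (0.0775) of 100 µM or 2 of 200 µM (0.0819). That of Pgk1, 0.23, was lost without library 2 of 100 µM (0.138), or 2 (0.0520) or 3 (0.0762) of 200 µM, and that of Pfkp, 0.23, without library 2 of 200 µM (0.0508). With library totals Aldoa turned lower in both comparisons, and Gapdh, Pgk1 and Pfkp turned lower between doses.

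**Figure D3:**
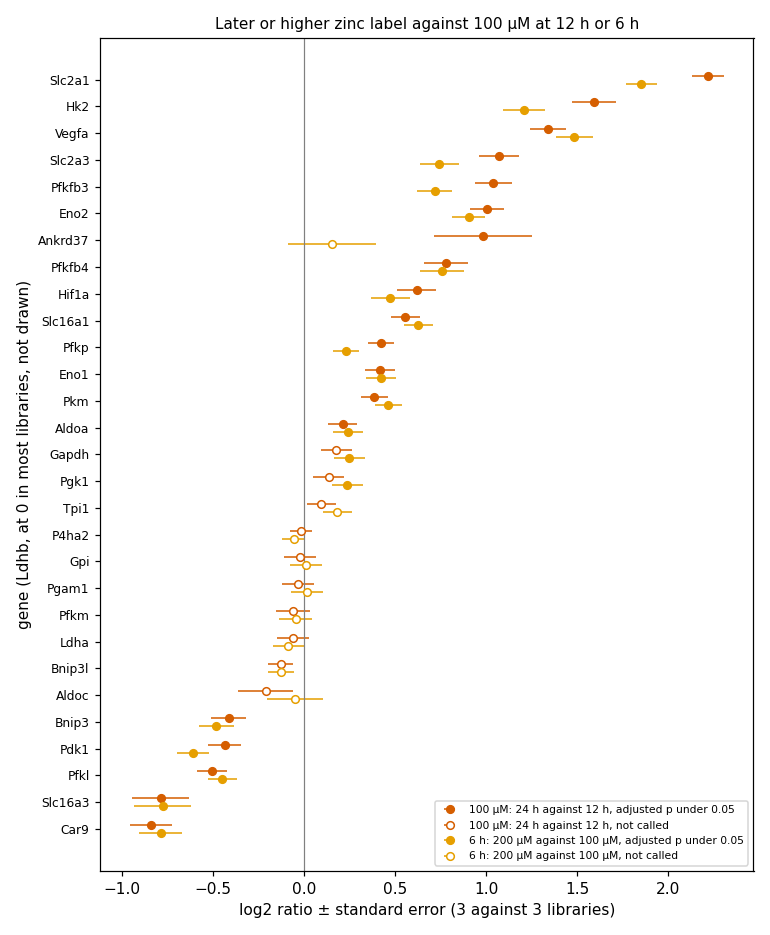
Log2 ratio ± SE of 24 h against 12 h at 100 µM and of 200 µM against 100 µM at 6 h (horizontal axis) for 29 tested genes (vertical axis, ordered by the first), filled where the adjusted p was under 0.05. Slc2a1 lies furthest right at 2.22 and 1.85, and Car9 furthest left at -0.84 and -0.79.

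Glycolytic genes and other HIF targets were also compared as groups. Between 24 h and 12 h, 9 of the 20 glycolysis genes rose and 2 fell (Pfkl and Slc16a3), while 4 of the 9 other HIF targets rose (Pfkfb3, Pfkfb4, Vegfa and Ankrd37) and 3 fell (Pdk1, Car9 and Bnip3), where 26.9% of all genes were higher and 27.6% lower. Between doses the counts were 11 and 2 of glycolysis, and 3 and 3 of the others, where 26.5% of all genes were higher and 27.1% lower. Medians were 0.15 and 0.23 for glycolysis, -0.02 and -0.06 for the other targets, and -0.01 for all tested genes in both. The median of glycolysis minus that of the others was -0.10 at 6 h, -0.01 at 12 h, 0.10 under the 24 h label and 0.10 under the 200 µM label. Without the filter on low counts the difference turned to 0.091 at 6 h and 0.16 at 12 h, and between 24 h and 12 h from 0.17 to -0.23, so its direction there rests on which low genes are tested. Per library, the median shift of glycolysis genes from the control mean was 0.37 to 0.51 at 6 h, 0.35 to 0.61 at 12 h, 0.58 to 0.72 under the 24 h label and 0.56 to 0.67 under the 200 µM label. For the other targets it was 0.38 to 0.55, 0.21 to 0.56, 0.50 to 0.60 and 0.50 to 0.56, so the ranges of glycolysis and the other targets overlapped at 6 h, at 12 h and under the 24 h label.

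**Figure D4:**
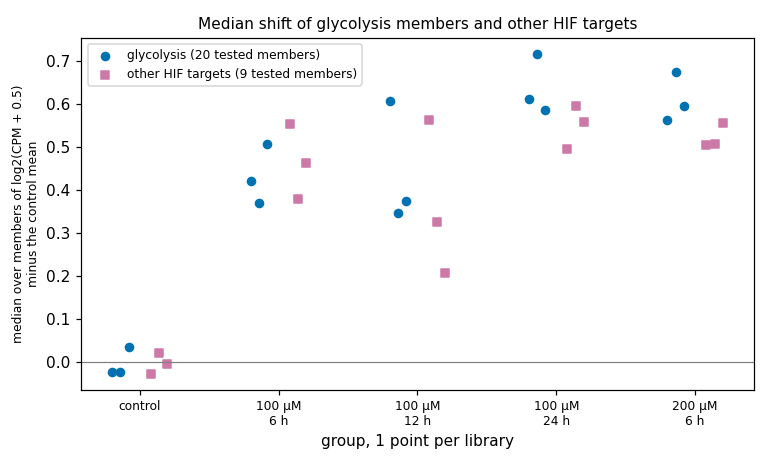
Median over tested members of log2(CPM + 0.5) minus the control mean (vertical axis), 1 point per library in each of 5 groups, for glycolysis (circles, 20 genes) and other HIF targets (squares, 9 genes). Treated libraries sit above the controls in both, at 0.35 to 0.72 for glycolysis and 0.21 to 0.60 for the others.

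Other genes of these pathways were read from lists beside the members. Their counts stand against 17.2%, 6.33%, 61% and 60.5% of all genes called in the 4 comparisons with control. Of 27 tested further HIF targets, 8 rose and 2 fell at 6 h, 4 rose and 2 fell at 12 h, and 17 rose and 6 fell under both the 24 h and the 200 µM label, which is 85.2% of them. Ddit4, an inhibitor of mTOR signalling, rose by 3.55 ± 0.09 and 3.59 ± 0.09 under those labels, and Wsb1 by 2.25 and 2.26. Stc2, a secreted glycoprotein, fell by 0.87, 0.62, 1.65 and 1.69 in the 4 comparisons with control. Ak4, a mitochondrial adenylate kinase, rose by 1.56 ± 0.19 at 6 h. In the HIF machinery, with 10 tested genes, 1 rose and 1 fell at 6 h, 0 rose and 1 fell at 12 h, and 4 rose and 3 fell under each of the other labels (70.0%). Arnt2, a partner of the alpha subunits, fell in all 4 comparisons, by 0.96, 0.76, 0.90 and 1.00. Arnt, the usual partner, had -0.07 and -0.05 at 6 h and 12 h, not called, and fell by 0.60 and 0.54 under the 24 h and 200 µM labels. Hif1an, an asparagine hydroxylase that restrains HIF, rose by 0.63 ± 0.10 and 0.61 ± 0.10 under those labels.

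The side branch of glycolysis that makes NADPH, the pentose phosphate pathway, had 7 tested genes, of which 3 rose and 1 fell at 6 h, 2 and 0 at 12 h, and 4 and 2 under each of the other labels. Tkt, a transketolase that links it back to glycolysis, had 0.42, 0.35, 0.55 and 0.55. Of 13 tested genes of pyruvate entry into mitochondria, 1 rose and 1 fell at 6 h, 1 and 0 at 12 h, and 4 and 4 under each of the other labels (61.5%, close to the share of all genes). Pdhb, a subunit of pyruvate dehydrogenase, had 0.26, 0.23, 0.39 and 0.41, and Dld, another component, fell by 0.74 and 0.71 under the last 2 labels. Among 16 tested genes of the citric acid cycle, the smallest adjusted p was 0.183 at 6 h (Suclg1) and 0.222 at 12 h (Fh), while 5 rose and 3 fell under the 24 h label, and 6 rose and 3 fell under the 200 µM label. These are 8 and 9 of the 16, near the shares of all genes called (61% and 60.5%). Sdha, a subunit of succinate dehydrogenase, fell by 0.26 under both.

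Of 9 tested other isoforms of glycolytic enzymes, 1 rose and 1 fell at 6 h, 2 and 0 at 12 h, and 2 and 2 under each of the other labels (44.4%), with Bpgm, which makes 2,3-bisphosphoglycerate, at 0.39, 0.26, 0.88 and 0.82. Of 6 tested regulators, 1 rose and 3 fell at 6 h, 0 and 1 at 12 h, 2 and 3 under the 24 h label and 2 and 2 under the 200 µM label. Txnip, which slows glucose uptake, fell in all 4 comparisons, by 1.12 ± 0.12, 0.72 ± 0.12, 2.80 ± 0.13 and 2.88 ± 0.13.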

How the data were processed

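Gene-level read counts, as deposited (whole numbers, not normalized), were used for 15 libraries, 3 in each of 5 groups taken from the labels. Tools named in the submitters' processing notes are TopHat, DESeq, bcl2fastq and CASAVA 1.8, with build rn4 and no roles. Not given in the sources used here are the counter, annotation, strand setting and treatment of multiply matching reads. Identifiers were matched to symbols through RefSeq (GRCr8, names and promoter windows only): 16671 of 16832 matched and 161 did not.

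Groups were compared by the quasi-likelihood test of edgeR 4.0.16 (R 4.3.3, TMM scaling, robust fit) over all 15 libraries with group as the factor, run on 10575 genes left by filterByExpr, with Benjamini-Hochberg adjustment over all of them and a threshold of 0.05. Levels are CPM, counts scaled by the TMM-adjusted library total. In the text a gene rose or fell only where it passed. Each ± beside a log2 ratio is a standard error, from 3 against 3 libraries. A number in parentheses after a ratio, or after a left-out library, is the adjusted p. The detection floor of 3 counts covers counting error only. From the other lists, up to 3 genes with the smallest adjusted p per comparison were eligible for naming, and some eligible genes are not reported here. The members and lists were chosen with earlier results of these data known.

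Alternatives were DESeq2 1.42.0, DESeq2 size factors, library totals, limma-voom (limma 3.58.1), other filters, the replicate block, a heart-transcript term, fits of the groups compared, fits without either of the matching labels, a log2 ratio of at least 0.5, and each library left out. Deviations of same-numbered libraries correlated at 0.129, 0.280 and 0.104 between the 24 h label and control. Between the 24 h and 200 µM labels they correlated at 0.203, 0.672 and 0.111. Libraries 1, 2 and 3 of the 24 h label nevertheless correlated best with 200 µM libraries 3, 2 and 1, and with controls 1, 2 and 1. The numbers are therefore not shown to mark pairs in these comparisons. In all others at least 1 correlation of same-numbered libraries lay under 0.1. Between 200 µM and 100 µM at 6 h, each library nevertheless correlated best with its own number (0.182, 0.112 and 0.0776). Library 2 correlated best with library 2 in every comparison. The replicate block called 6187 genes between doses, against 5663 without it, and 2564 against 1819 at 6 h. Whether the numbers mark batches was not tested. The fits with a block between the 24 h and 200 µM labels were added after the data were seen, and the closest libraries were chosen from the counts.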

Additional observations from a re-analysis of the deposited data

Results flagged for a closer look

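Vegfa moved in opposite directions against control in groups that were also tested against each other. It fell at 12 h and rose under the 24 h label, and the direct difference was 1.34 ± 0.10 on the log2 scale. It fell at 6 h at 100 µM and rose under the 200 µM label, with a direct difference of 1.48 ± 0.10. Slc16a1 fell at 6 h at 100 µM and rose under the 200 µM label, with a direct difference of 0.63 ± 0.08. The 6 h fall of Slc16a1 was lost with the heart term (adjusted p = 0.189), and with library totals it lay below control under the 200 µM label (-0.11). The 12 h fall of Vegfa was lost with the heart term (0.452). Each difference passed edgeR's quasi-likelihood test, and in each the groups of 3 libraries did not overlap. The 24 h and 200 µM libraries lie together, so the Vegfa differences are not separate evidence.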

How the results depend on the processing

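The counts of called members changed with scaling, with the heart term, which is set by library 1 of 6 h alone, and with single libraries left out. Scaling by library totals alone moved the median of all genes to -0.40 under the 24 h and 200 µM labels, to -0.34 between 24 h and 12 h and to -0.35 between doses. Relative to totals, 18 members were higher and 8 lower under the 24 h label, 17 and 6 under the 200 µM label, 10 and 14 between 24 h and 12 h, and 8 and 13 between doses. Among members called in either fit, signs turned with totals under the 24 h label for Bnip3 (-0.33), Car9 (-0.012), Pdk1 (-0.26), Pfkl (-0.18), Pgam1 (-0.027), Slc16a1 (-0.092) and Slc16a3 (-0.35). Under the 200 µM label they turned for Bnip3 (-0.35), Car9 (-0.087), Pdk1 (-0.32), Pfkl (-0.15), Pgam1 (-0.023) and Slc16a1 (-0.11). Between 24 h and 12 h they turned for Aldoa (-0.12), Pgk1 (-0.20) and Tpi1 (-0.24), and between doses for Aldoa (-0.10), Gapdh (-0.10), Gpi (-0.34), Pfkp (-0.11), Pgam1 (-0.33), Pgk1 (-0.11) and Tpi1 (-0.16). Members called in neither fit are not listed, such as Slc16a3 under the 200 µM label (-0.28) and Gapdh between 24 h and 12 h (-0.16). The heart term left 3 members called at 12 h and 0 between 12 h and 6 h. A log2 ratio of at least 0.5 left 14 at 6 h, 11 at 12 h, 0 between 12 h and 6 h and 11 between doses. Leaving out 1 library gave 20 to 22 at 6 h, 14 to 19 at 12 h, 23 to 24 under the 24 h label, 21 to 23 under the 200 µM label, 18 to 21 between 24 h and 12 h, 16 to 21 between doses and 0 to 2 between 12 h and 6 h. The glycolysis minus other HIF median became 0.091 (6 h), 0.16 (12 h), 0.20 (24 h label), 0.22 (200 µM label) and -0.23 (24 h against 12 h) with no filter, and 0.094, 0.17, 0.20 and 0.23 for the first 4 with at least 50 counts in 3 libraries, as the members tested change. The replicate block called 25 under the 24 h label, adding Aldoc (-0.27, adjusted p = 0.00307), and 2 between 12 h and 6 h. The library numbers are not shown to mark pairs in either comparison. Between the 24 h and 200 µM labels, where the closest libraries do not all share a number, the replicate block called 0 of 29, as did the fit without the block.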
